A study of Mus musculus with 6 samples.

Results

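The 9 genes described here encode chromatin regulators that work in linked complexes: Asxl1, Asxl2 and Bap1 of the H2A deubiquitinase, the H3K4 methyltransferases Kmt2a, Kmt2c and Kmt2d, the KMT2A cofactor Men1 (menin), the H3K79 methyltransferase Dot1l and the H3K36 methyltransferase Setd2. They were taken by symbol from the deposited count table, where each symbol matched 1 of the 26027 genes. In these blood progenitors with 1 mutant Srsf2 allele, 0 of the 9 passed the test between genotypes, as did 0 of all 17144 genes tested. Each member's level in mutant libraries overlapped its level in wild-type libraries. Over all genes tested, 7.84% had groups without overlap. In the replicate 3 library of each genotype, Kmt2d, Men1, Dot1l, Bap1 and Asxl1 were higher and Setd2, Asxl2 and Kmt2c lower than in replicates 1 and 2.

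As background, methyl groups on histone tails mark where genes are switched on and how far transcription has gone. H3K4 methylation by the KMT2 enzymes marks promoters and enhancers, DOT1L and SETD2 mark the bodies of transcribed genes, and BAP1 with an ASXL partner removes the single ubiquitin that Polycomb complexes place on histone H2A. ASXL1 and SETD2 are recurrently mutated in myeloid neoplasms, often beside splicing factor mutations in the case of ASXL1, and KMT2A is rearranged in acute leukaemia, where the fusion proteins depend on menin and DOT1L.

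RNA came from bone marrow cells that lacked lineage markers and carried cKit and the eYFP reporter, which the labels call immature multipotent progenitors. Every C57BL/6 mouse carried hScl-CreERT, a Cre active in blood stem and progenitor cells after tamoxifen, together with the R26eYFP reporter, and all received tamoxifen in vivo. The 3 mutant libraries were Srsf2 P95H/+, a knock-in with histidine for proline in the splicing factor SRSF2, and the 3 controls were Srsf2 +/+ with the same Cre and reporter. The first wild-type library was female and 54 weeks old, and the other 5 were 32 weeks old: males in wild-type replicates 2 and 3 and P95H/+ replicate 3, females in P95H/+ replicates 1 and 2. The labels do not say whether a library holds 1 mouse or a pool, so p-values measure the spread between these libraries. A bulk library cannot tell fewer cells of a type from less RNA per cell.

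Library totals ran from 10747941 to 23010510 counts, the lowest being P95H/+ replicate 3. Replicate 3 of both genotypes stood apart: among genes whose transcripts hold at most 40% G and C, the median log2 difference from replicates 1 and 2 was -0.92 in wild type and -1.16 in P95H/+, and above 55% it was 0.44 and 0.77. CPM are counts divided by the library total and multiplied by 1000000. Of the 6 progenitor markers, Kit and Cd34 stood at 476 to 548 and 303 to 407 CPM. Runx1 was at 265 to 323, Flt3 at 82.4 to 165 and Gata2 at 112 to 281 CPM. Cd48 was at 47.4 and 30.1 CPM in replicate 3 of wild type and P95H/+, against 72.4 to 79.2 CPM in replicates 1 and 2. The 6 T and NK cell markers summed to 1.81 to 9.08 CPM, highest in wild-type replicate 1, with Cd3g at 0 in 1 library. The 3 mast cell and basophil markers summed to 69.4 and 66.7 CPM in replicate 3 of wild type and P95H/+ and to 124 to 195 CPM in the other 4 libraries. Of the 7 neutrophil markers, 7 had a positive fold change, and their summed level was 7122 to 11557 CPM in wild type and 8453 to 10337 CPM in P95H/+. The largest log2 fold changes were 0.96 for Ltf and 0.94 for Ngp, at 399 and 457 CPM in P95H/+ replicate 3. In P95H/+ replicates 1 and 2 Ltf was at 32.5 and 34.9 CPM and Ngp at 64.3 and 55.1 CPM. Wild-type libraries held 34.5 to 161 CPM of Ltf and 46.5 to 203 CPM of Ngp. Ctsg was at 555 CPM in P95H/+ replicate 3, its lowest library, against 979 and 814 CPM in P95H/+ replicates 1 and 2. S100a8 was at 129 CPM in P95H/+ replicate 3, between 171 and 103 CPM in P95H/+ replicates 1 and 2. Mpo, Elane and Prtn3, at 5338, 1798 and 1662 CPM, were higher in P95H/+ replicate 3 than in the other P95H/+ libraries. The 5 erythroid markers summed to 343 to 508 CPM in wild type and 244 to 870.2 CPM in P95H/+, highest in P95H/+ replicate 3. The part of these markers, of depth and of base composition in the values below was not tested.

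The base composition of the members is shown here because the replicate 3 differences moved with it. GC content of the longest coding transcript (GENCODE M21, mm10) was 58.8% for Men1, 58.4% for Kmt2d, 57.5% for Dot1l, 54.9% for Bap1, 51.7% for Asxl1, 50.6% for Kmt2a, 47.6% for Kmt2c, 44.3% for Setd2 and 41.7% for Asxl2, against a median of 49.3% over all annotated genes of the table. Each line below is a spliced 120-base coding stretch, 5′ to 3′, chosen as the first in-frame window nearest in composition to its whole transcript, with G and C in capitals. The Kmt2d stretch lies in exons 2 to 3 at mm10 chr15:98866429-98866717 on the minus strand, and that of Dot1l in exons 4 to 5 at chr10:80768612-80771200 on the plus strand. The Setd2 stretch lies in exons 1 to 3 at chr9:110532721-110547280 and that of Asxl2 in exons 2 to 4 at chr12:3442480-3451701, both on the plus strand.
Kmt2d: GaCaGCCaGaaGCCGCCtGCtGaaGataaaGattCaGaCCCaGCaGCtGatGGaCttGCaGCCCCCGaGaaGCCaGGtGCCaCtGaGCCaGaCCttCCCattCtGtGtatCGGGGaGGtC
Dot1l: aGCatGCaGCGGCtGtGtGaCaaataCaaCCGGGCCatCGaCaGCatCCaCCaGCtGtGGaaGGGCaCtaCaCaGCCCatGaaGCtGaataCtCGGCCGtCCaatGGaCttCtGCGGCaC
Setd2: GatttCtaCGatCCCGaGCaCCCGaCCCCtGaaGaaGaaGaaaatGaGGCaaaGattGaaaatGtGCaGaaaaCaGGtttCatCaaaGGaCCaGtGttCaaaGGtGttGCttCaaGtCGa
Asxl2: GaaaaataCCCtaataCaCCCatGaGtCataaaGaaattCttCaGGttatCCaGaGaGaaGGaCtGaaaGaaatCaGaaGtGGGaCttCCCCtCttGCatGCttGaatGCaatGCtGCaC
Kmt2d and Dot1l hold 59.9% and 67.0% G or C at the codons' last position, Asxl2 44.1% and Setd2 37.3%, averaged over the coding sequence of the transcript used. For Asxl2 that transcript has 11934 bases, of which 1791 are coding, and its other annotated transcripts were not read.

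Promoters did not follow the order of the transcripts. RefSeq promoter sequences (GRCm38.p6) around the transcription start were found for all 9 members, and that of Setd2, at 77.3% GC with 38 CG pairs, was far richer than that of Men1, at 53.3% with 11, although the Setd2 transcript is the poorer. The Setd2 promoter lies at chr9:110532347-110532646 and the first of 3 Men1 promoters at chr19:6334729-6335028, both on the plus strand, and CG pairs are in capitals below.
Setd2 promoter: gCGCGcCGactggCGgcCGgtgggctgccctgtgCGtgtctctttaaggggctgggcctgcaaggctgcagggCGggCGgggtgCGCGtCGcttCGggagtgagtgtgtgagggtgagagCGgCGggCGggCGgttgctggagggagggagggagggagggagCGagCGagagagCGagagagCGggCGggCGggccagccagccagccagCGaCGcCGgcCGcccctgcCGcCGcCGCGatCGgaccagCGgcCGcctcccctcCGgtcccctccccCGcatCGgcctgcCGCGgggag
Men1 promoter: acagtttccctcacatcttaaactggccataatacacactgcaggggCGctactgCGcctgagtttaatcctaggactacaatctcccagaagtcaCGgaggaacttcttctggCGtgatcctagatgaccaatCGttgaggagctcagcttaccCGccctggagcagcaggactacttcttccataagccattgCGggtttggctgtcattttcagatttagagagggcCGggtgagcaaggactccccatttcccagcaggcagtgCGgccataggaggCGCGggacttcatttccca
The richest member promoter was that of Kmt2c, with 88% GC and 56 CG pairs, and the median over 27025 genes was 52.7% GC and 7 CG pairs.

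Members of the H2A deubiquitinase were compared first. BAP1 is its catalytic subunit, and ASXL1 and ASXL2 are alternative partners that activate it. Asxl1 (ENSMUSG00000042548, mm10 chromosome 2, 153345829 to 153404007, protein coding) was at 197, 191 and 224.9 CPM in wild-type replicates 1, 2 and 3 and at 192, 193 and 273 CPM in those of P95H/+. Replicate 3 was the highest library of each genotype, and the other 4 lay within 1.03-fold of each other. Group means were 204 ± 18.1 and 219 ± 46.4 CPM (SD, n = 3 each). On the log2 scale P95H/+ exceeded wild type by 0.18 (SE 0.22), with a 95% interval of -0.34 to 0.71 and an edgeR adjusted p of 1, the value of all 9 members. Asxl2 (ENSMUSG00000037486, chromosome 12, 3426857 to 3506852) went the other way in the replicate 3 libraries. It was at 167, 167 and 107 CPM in wild type and at 151, 150.1 and 131 CPM in P95H/+, with means of 147 ± 34.4 and 144 ± 11.0 CPM (SD, n = 3 each). The fitted genotype difference on the log2 scale was 0.04 (SE 0.23; interval -0.51 to 0.58). Bap1 (ENSMUSG00000021901, chromosome 14, 31251450 to 31259944) was at 114, 119.98 and 152 CPM in wild type and at 116, 116 and 163 CPM in P95H/+. Its 2 replicate 3 libraries were again the highest, and the log2 fold change was 0.11 (SE 0.23; interval -0.44 to 0.66).

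The balance of the partners Asxl1 and Asxl2 was read within each library. In replicates 1 and 2, Asxl1 counts were 1.18 and 1.15 times those of Asxl2 with wild-type Srsf2 and 1.27 and 1.28 times with P95H/+. In replicate 3 the ratio was 2.09 in wild type and 2.08 in P95H/+, so that it differed more by replicate number than by genotype. Bap1 to Asxl1, by contrast, stayed between 0.582 and 0.674 in the 6 libraries.

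Among the H3K4 methyltransferases, KMT2A acts with menin at promoters such as those of the Hoxa genes, and KMT2C and KMT2D are the enhancer monomethyltransferases. Kmt2d (ENSMUSG00000048154, chromosome 15, 98831669 to 98871204, minus strand) was the most counted member, at 644, 678 and 1055 CPM in wild type and 643, 715 and 1533 CPM in P95H/+. The 4 libraries of replicates 1 and 2 lay close together, and both replicate 3 libraries lay far above them. The means of 792 ± 228.1 and 964 ± 494 CPM (SD, n = 3 each) gave a fitted log2 fold change of 0.37 (SE 0.39), the largest of the 9, with an interval of -0.54 to 1.29. That interval holds every fold change from 0.69 to 2.45, so the 6 libraries do not exclude a 2-fold rise. Kmt2c (ENSMUSG00000038056, chromosome 5, 25271798 to 25498783, minus strand) was at 316, 282 and 222 CPM in wild type and 254, 277 and 248 CPM in P95H/+. Here replicate 3 was the lowest library of each genotype, and the log2 fold change of -0.0031 (SE 0.20; interval -0.47 to 0.47) was the nearest to 0. Kmt2a (ENSMUSG00000002028, chromosome 9, 44803355 to 44881296, minus strand) was at 364, 349 and 271 CPM in wild type and at 299, 349 and 416 CPM in P95H/+. It was the only member whose replicate 3 was the lowest library in wild type and the highest in P95H/+, and its log2 fold change was 0.19 (SE 0.23; interval -0.34 to 0.72).

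**Figure D1:**
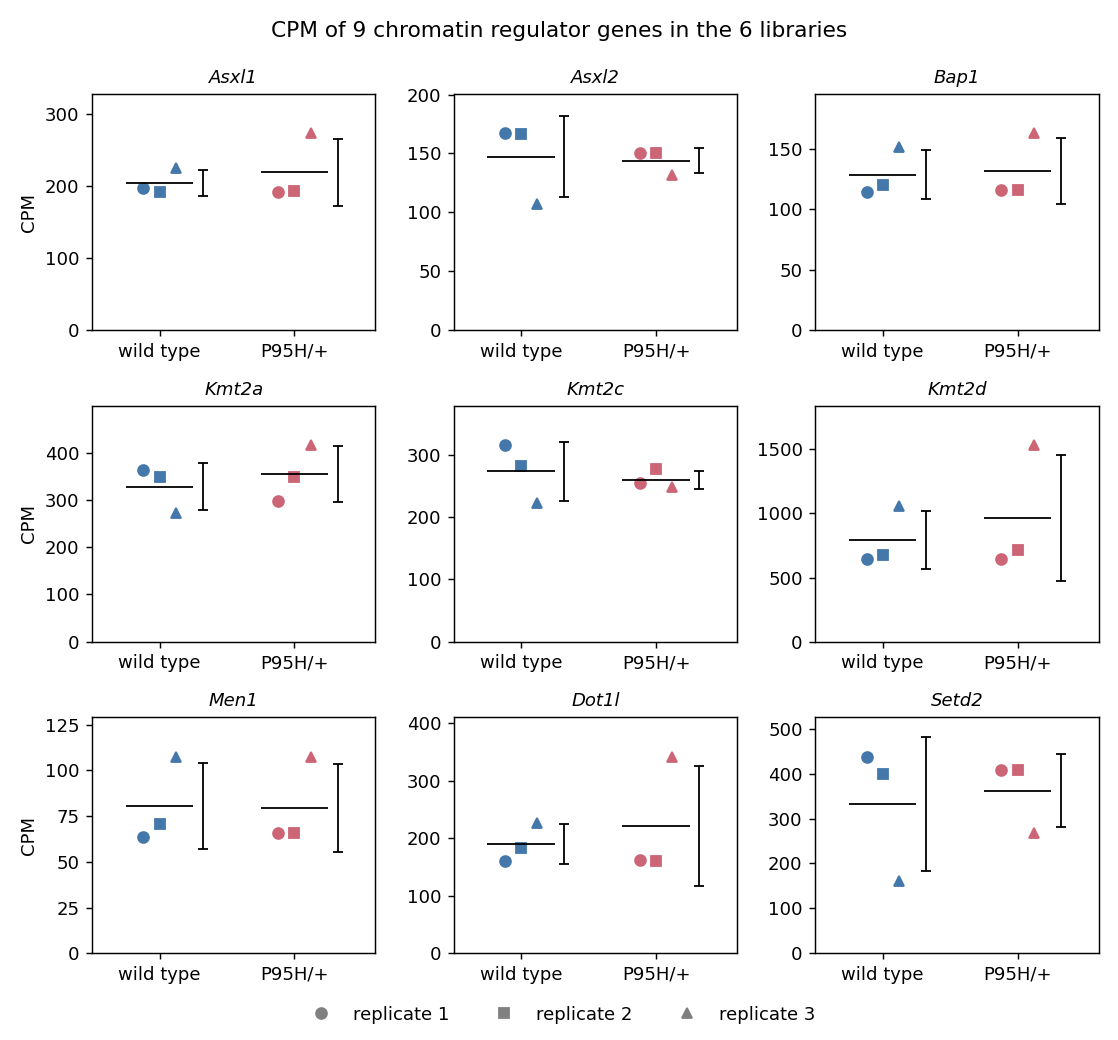
CPM of each gene (y axis, from 0) in wild-type and P95H/+ libraries; symbols mark the replicate number, horizontal lines the group mean and bars the SD of 3 libraries. Kmt2d in P95H/+ replicate 3, at 1533 CPM, and Setd2 in wild-type replicate 3, at 162 CPM, stand farthest from their groups.

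The balance between the enhancer enzymes moved with the replicate number as well. Kmt2d to Kmt2c counts stood at 2.04 and 2.40 in wild-type replicates 1 and 2 and at 2.53 and 2.59 in those of P95H/+, against 4.74 and 6.18 in replicate 3. Kmt2a to Kmt2c counts stood at 1.15 to 1.26 in 5 libraries and 1.68 in P95H/+ replicate 3.

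Men1, Dot1l and Setd2 completed the set. Menin is a scaffold that tethers KMT2A to chromatin, and Men1 (ENSMUSG00000024947, chromosome 19, 6334979 to 6340891), the least counted member, was at 63.3, 70.6 and 108 CPM in wild type and 65.5, 65.8 and 107 CPM in P95H/+. The replicate 3 libraries of the genotypes were all but equal, and the log2 fold change was 0.07 (SE 0.31; interval -0.65 to 0.79). Dot1l (ENSMUSG00000061589, chromosome 10, 80755206 to 80795461) was at 161, 183 and 227.5 CPM in wild type and 162, 161 and 342 CPM in P95H/+. Its log2 fold change of 0.31 (SE 0.35; interval -0.51 to 1.13) rested on P95H/+ replicate 3: without that library it was -0.18. Setd2 (ENSMUSG00000044791, chromosome 9, 110532597 to 110618633) was at 438, 399 and 162 CPM in wild type and at 409, 409 and 267 CPM in P95H/+. Replicate 3 was low in both genotypes, and in wild type it held 0.39 times the mean of replicates 1 and 2. Means were 333 ± 149.6 and 362 ± 81.5 CPM (SD, n = 3 each). The fitted difference was 0.18 (SE 0.39; interval -0.72 to 1.09) on the log2 scale, which turned to -0.15 without wild-type replicate 3.

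Across the whole table, the two-sided quasi-likelihood test of edgeR called 0 of 17144 genes at an adjusted p of 0.05, 0% of those tested, and 361 had an unadjusted p under 0.05, which is 2.11%. The 9 members were all tested, 0 were called and 0 had an unadjusted p under 0.05, their smallest p being 0.37 for Kmt2d. DESeq2 called 8 genes (0.0467%), limma voom 0 and voom with sample quality weights 97 (0.566%), and 0 of these were members. The replicate number as a block gave 1 call (0.00583%), with or without GC correction, and leaving out wild-type replicate 3 gave 1 (0.00567%), again with 0 members. Groups did not overlap for 0 of 9 members, against 7.84% of genes tested. Exact two-sided permutation tests of CPM, which cannot fall below 0.1 with 3 libraries against 3, gave 0.6 to 1 for the members. Of the 9 fold changes 8 were positive, with a median of 0.18 on the log2 scale beside 0.02 for all genes tested. Leaving out P95H/+ replicate 3 turned Asxl1 to -0.03, Bap1 to -0.10, Kmt2d to -0.17 and Men1 to -0.24, and Kmt2c to 0.0081. For Asxl2, the library whose removal gave the lowest value, -0.15, was wild-type replicate 3, and removal of P95H/+ replicate 1 gave -0.0062. Without wild-type replicate 1 Men1 was at -0.08 and Kmt2c at 0.11, and without wild-type replicate 2 they were at -0.0030 and 0.04. Counting error was small beside the spread: 1154 to 17764 counts a library gave 0.75% to 2.94%, whereas the SD over replicates was 5.81% to 51.3% of the mean.

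Without replicate 3 of both genotypes the intervals narrowed, and 7 of the 9 fold changes lay nearer to 0, while those of Asxl2 and Kmt2c lay farther from it. In this comparison of 2 libraries against 2, 144 of 17371 genes passed, 0.829% of those tested, 32 higher and 112 lower, and 0 of the 9 members did. The 2 P95H/+ libraries left were females of 32 weeks, and the 2 wild-type ones a female of 54 weeks and a male of 32 weeks. No wild-type library left matched the P95H/+ ones in both sex and age, and the part of sex and age was not tested. The member fold changes ran from -0.14 for Kmt2c (SE 0.08; interval -0.33 to 0.05) to 0.07 for Kmt2d (SE 0.09; interval -0.13 to 0.27), 4 positive and 5 negative. Setd2 was at -0.0028 (interval -0.18 to 0.18), Bap1 at 0.01 (-0.17 to 0.19), Men1 at 0.0031 (-0.20 to 0.21) and Asxl1 at 0.02 (-0.15 to 0.19). Dot1l was at -0.06 (-0.26 to 0.14), Kmt2a at -0.11 (-0.30 to 0.08) and Asxl2 at -0.12 (-0.29 to 0.05). Asxl2, Kmt2a and Kmt2c were lower in both P95H/+ libraries than in both wild-type ones, Kmt2a by less than 1 CPM at the nearest pair. That makes 3 of 9 members without overlap, where 48.1% of genes had none with 2 libraries a group.

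**Figure D2:**
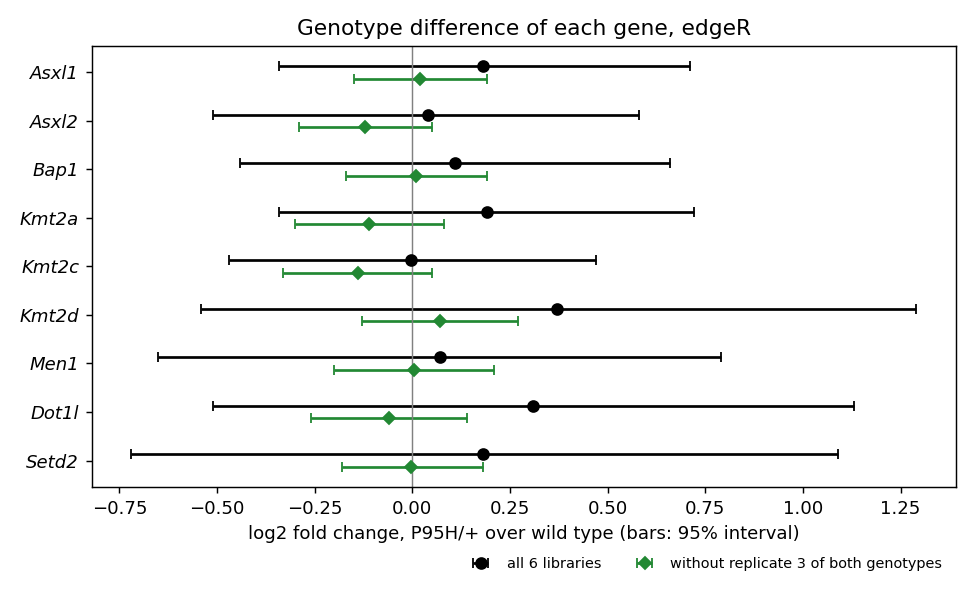
Log2 fold change of P95H/+ over wild type (x axis) for each gene, with 95% intervals from edgeR, in all 6 libraries (circles) and without replicate 3 of both genotypes (diamonds). Every interval spans 0, and those of the 4-library fit stay within -0.33 and 0.27.

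The displacement of the replicate 3 libraries was graded by transcript composition. In wild type, the log2 difference of replicate 3 from the mean of replicates 1 and 2 ran from -1.41 for Setd2, -0.67 for Asxl2, -0.46 for Kmt2c and -0.43 for Kmt2a to 0.18 for Asxl1, 0.34 for Bap1, 0.37 for Dot1l, 0.64 for Kmt2d and 0.65 for Men1. In P95H/+ it ran from -0.54 for Setd2, -0.13 for Asxl2 and -0.03 for Kmt2c to 0.43 for Kmt2a, 0.56 for Bap1, 0.57 for Asxl1, 0.78 for Men1, 1.15 for Dot1l and 1.24 for Kmt2d. The order was much the same in both genotypes. Over these 9 genes, which share their libraries, the difference correlated with transcript GC content at r = 0.91 in wild type and 0.92 in P95H/+, against 0.57 and 0.62 over all tested genes.

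Members were then set beside the tested genes within 1 percentage point of their own GC content. Setd2 in wild type, at -1.41, stood at percentile 7.0 of 1600 such genes, whose median was -0.44. In P95H/+ it lay at their median, -0.54 against -0.53. Kmt2a in wild type, at -0.43, stood below a median of 0.03 for genes of like composition, and in P95H/+, at 0.43, above a median of 0.09. Bap1 stood near its like in both, 0.34 against 0.33 and 0.56 against 0.52, while Kmt2d in P95H/+ stood at percentile 84.5 and Asxl2 at 86.5.

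**Figure D3:**
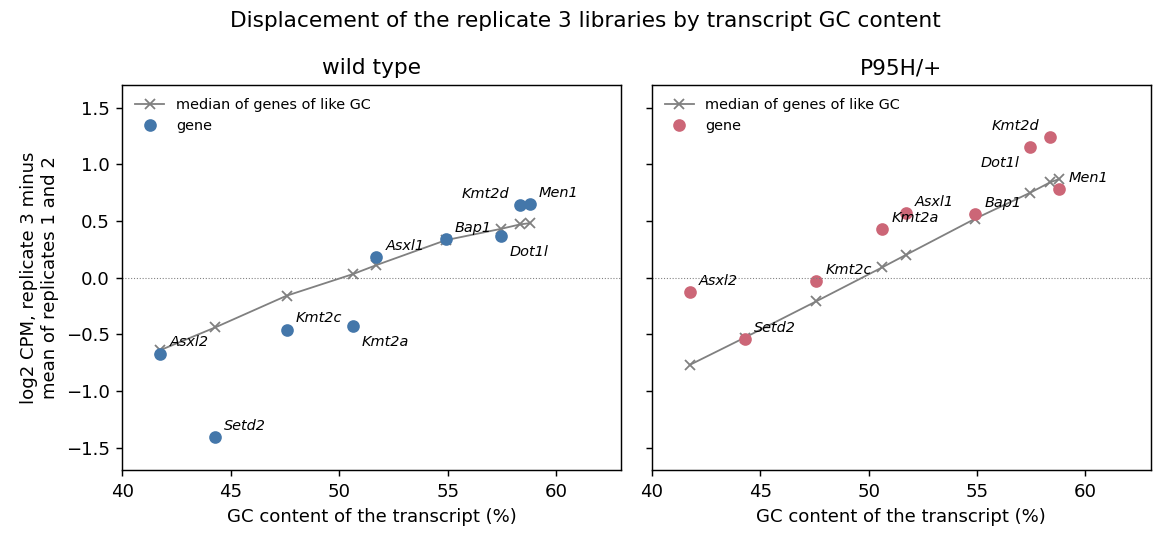
Log2 CPM of replicate 3 minus the mean of replicates 1 and 2 (y axis) against transcript GC content (x axis, percent) for the 9 genes, in each genotype; crosses joined by a line give the median of all tested genes within 1 percentage point of each gene. Setd2 at -1.41 in wild type lies farthest from that line.

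Matched by replicate number, members differed between genotypes chiefly in replicate 3. The log2 difference of P95H/+ from wild type had a median over the 9 of 0.05 in replicate 1, -0.03 in replicate 2 and 0.43 in replicate 3, and 5, 3 and 9 of the 9 were positive. All tested genes had medians of -0.00069, 0.0033 and 0.05. In replicate 3 Setd2 differed by 0.87, Kmt2a by 0.76, Dot1l by 0.73 and Kmt2d by 0.68, and Men1 by 0.14. After correction for GC content 8 of 9 were positive there, from 0.09 for Bap1 to 0.98 for Setd2, and Men1 was at -0.14. Long transcripts moved the same way in that replicate: the 1773 tested genes with transcripts of at least 6 kb, among them 7 of the members, had a median of 0.19, or 0.21 after correction. These are single libraries without a replicate of their own, and the part of length, depth or cell content in them was not tested.

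Levels between genes were compared per length, as CPM per kb of annotated exons. Averaged over 6 libraries, Kmt2d led with 44.0 ± 17.9 CPM per kb, followed by Setd2 with 32.3 ± 10.1, Asxl1 with 28.4 ± 4.38, Bap1 with 27.8 ± 4.58, Dot1l with 23.7 ± 8.23, Men1 with 20.9 ± 5.57, Kmt2a with 20.5 ± 3.06, Kmt2c with 13.1 ± 1.59 and Asxl2 with 9.13 ± 1.43 (SD, n = 6). Neighbours from Kmt2d to Kmt2a differed by less than the larger of their SDs, and Kmt2d exceeded Setd2 in 2 of 6 libraries, those of replicate 3. Kmt2a exceeded Kmt2c and Kmt2c exceeded Asxl2 in 6 of 6. In replicates 1 and 2 Setd2 led with a mean of 38.5 CPM per kb, ahead of Kmt2d at 33.6, and in the replicate 3 libraries its mean was 19.95 while Kmt2d stood at 64.9.

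**Figure D4:**
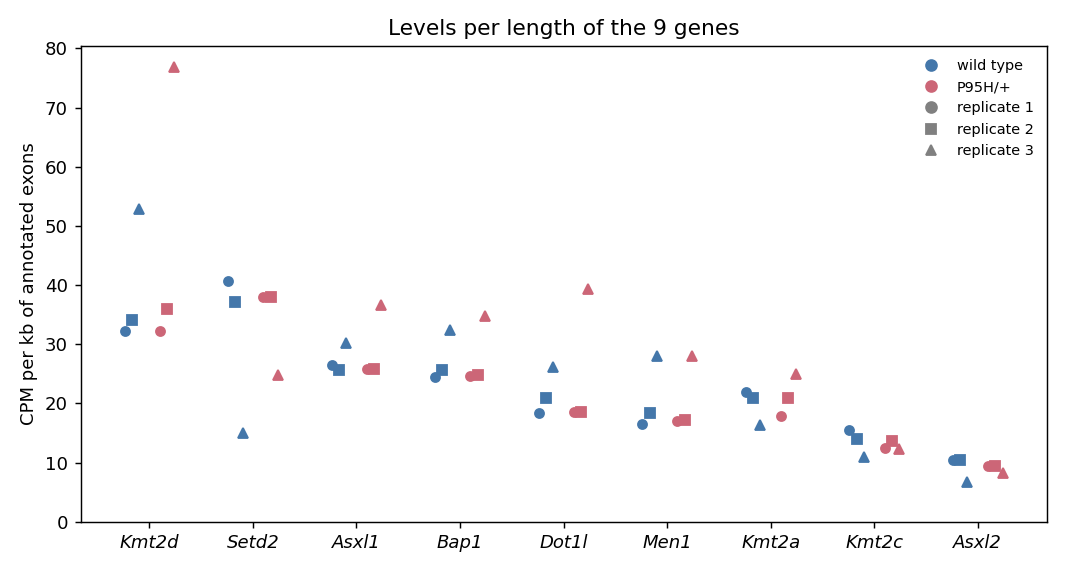
Level of each gene as CPM per kb of annotated exons (y axis, from 0), genes ordered by their mean over 6 libraries, coloured by genotype with symbols for the replicate number. Asxl2 and Kmt2c are the lowest in every library, and the order of the rest differs between replicate 3 and the others.

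Before GC correction, pairs of members fell into blocks by library profile. Over the 6 libraries, 16 of the 36 pairs had a Pearson r of log2 CPM above 0.5 and 9 below -0.5, as a description of libraries that share the replicate 3 displacement. Bap1 and Kmt2d reached 0.99, Asxl2 and Setd2 0.97, and Men1 and Setd2 -0.81. With the GC trend removed, Asxl1 and Asxl2 turned from -0.37 to 0.94 and Bap1 and Setd2 from -0.68 to -0.05, while Men1 and Setd2 kept -0.71. Asxl2 and Setd2 went from 0.97 to 0.15, and Bap1 and Kmt2d from 0.99 to 0.85. The only pairs then below -0.5 were those of Men1 with Kmt2a, Kmt2c and Setd2. The 5 genes outside the set most like the members' mean profile were Eps15l1, Rrnad1, Smap2, Proser1 and Sh3gl1, with r from 0.992 to 0.998 among 9188 genes of at least 10 CPM. They were picked by the highest r, so its height adds no evidence of a link. The profile, a mean of centred log2 CPM, was 0.38 in P95H/+ replicate 3 and -0.13 to -0.02 in the other libraries. It averages members that moved in opposite directions, such as Kmt2d and Setd2 (r = -0.61).

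Partners of the members were then read from lists chosen by function. Of 8 tested partners of BAP1, 0 passed, 6 were positive and the median log2 fold change was 0.19. That median turned to -0.14 without P95H/+ replicate 3 and to -0.11 without both replicate 3 libraries, with 2 of 8 positive in the second case, and it was 0.29 without P95H/+ replicate 1, 0.34 without P95H/+ replicate 2 and 0.31 without wild-type replicate 3. Hcfc1, the host cell factor bound by BAP1, had 0.42 (SE 0.33), or 0.12 without both replicate 3 libraries, and the demethylase gene Kdm1b -0.31 (SE 0.20), at 28.5, 28.9 and 24.5 CPM in wild type and 21.8, 22.0 and 19.0 CPM in P95H/+. The Kdm1b value was -0.36 (SE 0.11) without both replicate 3 libraries. Kdm1b was lower in each P95H/+ library than in each wild-type one, as were Ogt and Kdm5b. With Ash2l, 4 of the 62 tested list genes, 6.45%, had groups without overlap, near the 7.84% of all genes, and Ogt and Kdm5b were picked out after their values were seen. Dek, at 98.9 to 498 CPM, overlaps 9.19% of the exonic bases of Kdm1b on the other strand. Of 14 tested H3K4 methyltransferases and COMPASS subunits 0 passed and 13 were positive, with a median of 0.15. The median was 0.06 without P95H/+ replicate 3, and 0.05 with 10 of 14 positive without both replicate 3 libraries. Ash2l, a core subunit of all KMT2 complexes, was higher in each P95H/+ library, at 129.5, 120.1 and 108.2 CPM against 103, 107.9 and 93.5 CPM. The nearest pair, P95H/+ replicate 3 and wild-type replicate 2, was all but level. Its log2 difference was 0.31 (SE 0.18), and 0.28 (SE 0.09) without both replicate 3 libraries. Ncoa6, a subunit of the KMT2C and KMT2D complexes, had 0.30 (SE 0.26), and -0.01 without both replicate 3 libraries. Kdm6a, the X-linked H3K27 demethylase of the same complexes, followed sex, at 191, 166 and 175.9 CPM in the 3 female libraries and 114, 87.5 and 83.5 CPM in the 3 male ones, and its genotype difference of 0.19 (SE 0.37) turned to -0.13 with sex in the model.

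Of the 4 DOT1L partners 0 passed with all 6 libraries, the median being 0.05. Mllt6, which encodes the DOT1L partner AF17, was at 60.6, 64.5 and 88.9 CPM in wild type and at 36.5, 44.2 and 93.5 CPM in P95H/+. The groups overlapped through replicate 3, and the log2 fold change was -0.21 (SE 0.39). Without replicate 3 of both genotypes Mllt6 fell by 0.60 on the log2 scale (SE 0.10) and was the only member of the 6 lists to pass, with an edgeR adjusted p of 0.0362. In that setting 0.829% of all genes passed, and the libraries left differed between genotypes in sex and age as well. With sex as a term in the fit of all 6 libraries, Mllt6 was at -0.06. The part of sex and age in its value without replicate 3 was not tested. Mllt1 (ENL) had 0.18 (SE 0.38), and -0.0026 without both replicate 3 libraries. Of 11 genes of H3K36 methylation 0 passed, with a median of 0.03, Smyd2, of whose exonic bases 30.0% are shared with Gm37422 on the other strand, at 0.11 (SE 0.22) and the H3K36 reader gene Zmynd11 at 0.13 (SE 0.35). Without both replicate 3 libraries that median was -0.06, Smyd2 was at -0.05 and Zmynd11 at -0.04. Of 9 H3K4 demethylase and H2A ubiquitin genes 0 passed, with a median of 0.03, the X-linked demethylase gene Kdm5c at 0.35 (SE 0.20) and the Polycomb ligase gene Ring1 at 0.26 (SE 0.25). This median was -0.02 without both replicate 3 libraries, with Kdm5c at 0.35 (SE 0.10) and Ring1 at 0.18 (SE 0.10).

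Genes reported as targets of KMT2A, menin and DOT1L gave 0 calls among 16, 8 positive and 8 negative, with a median of 0.02, or -0.08 without both replicate 3 libraries. Cdkn2c, a cell cycle inhibitor gene activated through menin, had 0.33 (SE 0.21), and 0.17 without them. Hoxa9 was at 37.7, 29.8 and 17.4 CPM in wild type and 33.6, 36.2 and 27.0 CPM in P95H/+, and Meis1, its cofactor gene, at 159, 127 and 89.8 against 83.3, 125 and 67.2 CPM. Both overlapped between genotypes, and both were lowest in replicate 3. Hoxa9 and Meis1 were added after their values were seen.

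Some counts may hold reads of other genes, since whether reads were counted by strand is not given in the sources used here. An annotated gene on the opposite strand shares 2.65% of the exonic bases of Asxl1 (2500004C02Rik, at most 5.13 CPM), 0.972% of Asxl2 (1110002L01Rik, at most 4.83 CPM) and 1.35% of Kmt2c (Gm42585, at most 10.1 CPM). AC061963.1 shares 2.27% of those of Kmt2a. Counts per gene do not show which isoforms were made.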

How the data were processed

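Ribosome-depleted total RNA was made into stranded libraries and read as 150 bp pairs, per the labels' protocols. The submitters' processing notes name the aligner STAR 2.5.3a and the counter featureCounts (Subread 1.5.1), with Picard 1.96, Trim Galore and cutadapt, limma and edgeR, on mm10, with no settings given. The authors deposited raw counts for 26027 genes and 2 CPM tables; the deposited CPM equalled counts over library totals (over the 15466 kept genes in the filtered table) within 5e-04. All values start from the counts.

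The genotype test was that of edgeR 4.0.16, run in R 4.3.3 (TMM, filterByExpr, robust quasi-likelihood F test, Benjamini-Hochberg over 17144 genes, threshold 0.05). SE follows from the F statistic, and log2 CPM use a prior count of 2. For GC correction, a natural spline (4 degrees of freedom) on transcript GC was fitted to the deviations within a library and used as its offset. Fits were tested on simulated data. Annotation and lengths are from GENCODE M21, which holds 25878 of the genes. Alternatives used DESeq2 1.42.0 and limma 3.58.1. Deviations from group means correlated across genes for equal replicate numbers (0.372, 0.348 and 0.613, each above 0.1), and as strongly for wild-type 1 with P95H 2 (0.463) and wild-type 2 with P95H 1 (0.386). Each replicate 3 correlated negatively with replicates 1 and 2 of the other genotype (-0.549 to -0.428). A fit with the number as a block was run, though the labels name no shared batch.

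Members, lists and tests were chosen with earlier results of these data known. Named are the 9 members, the list genes past the test or else the 2 of smallest p a list, Kdm6a and the 5 genes most like the members' mean profile. A gene that this rule names is not reported here. Nsd2 and Nsd3 were looked up under older symbols too, and Asxl3 and Pagr1a of the lists were not analysed here.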

Additional observations from a re-analysis of the deposited data

How the results depend on the processing

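The count of 0 members past the test held in each of the 19 other settings. The count over all genes was 8 with DESeq2, 97 with sample quality weights, 1 with the replicate block, 1 with the replicate block and GC correction together, 144 without both replicate 3 libraries, and 0 to 1 on leaving out single libraries, the 1 being without wild-type replicate 3. The replicate block changed no call among the members or the lists. The members' median, 0.18 in the main fit, was -0.0028 without both replicate 3 libraries and -0.03 to 0.23 on leaving out single libraries. These moves were less than its spread between replicates (0.23). Replicate 3 enters that spread, the medians by replicate being 0.05, -0.03 and 0.43, so the spread cannot show that the median is stable.

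Single members changed sign without passing any test. Without both replicate 3 libraries these were Asxl2 (-0.12), Kmt2a (-0.11), Dot1l (-0.06) and Setd2 (-0.0028). With sample quality weights they were Asxl2 (-0.09), Bap1 (-0.0030), Kmt2a (-0.03), Men1 (-0.03) and Dot1l (-0.07). Library totals alone gave Asxl2 -0.03 and Men1 -0.02, and sex as a term gave Asxl2 -0.02 and Setd2 -0.0016. Kmt2c became positive with DESeq2 size factors (0.03), DESeq2 (0.03), voom (0.01), GC correction (0.05), the replicate block (0.01) and the replicate block with GC correction (0.05). Leaving out single libraries gave ranges of -0.03 to 0.29 for Asxl1, -0.15 to 0.16 for Asxl2, -0.10 to 0.23 for Bap1, -0.14 to 0.11 for Kmt2c, -0.17 to 0.62 for Kmt2d, -0.24 to 0.32 for Men1, -0.18 to 0.51 for Dot1l and -0.15 to 0.42 for Setd2. Kmt2a stayed positive there. The causes were not tested.

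Of the lists, DOT1L partners had 1 gene past the test without both replicate 3 libraries, a median of -0.07 with sex as a term and -0.06 to 0.10 on leaving out single libraries. The H3K4 list had a median of 0.04 with sample quality weights and 0.06 to 0.21 on leaving out single libraries. The BAP1 partners had -0.07 with sample quality weights and -0.14 to 0.34 on leaving out single libraries. The medians of the other 3 lists were on both sides of 0 across settings: -0.12 to 0.11 for H3K36, -0.13 to 0.09 for demethylase and H2A ubiquitin genes and -0.16 to 0.24 for target genes on leaving out single libraries.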
